A study of Oryza sativa with 6 samples.

Results

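Plants read calcium pulses through EF-hand proteins. Calcineurin B-like proteins (CBLs) are sensors that bind calcium and recruit CBL-interacting protein kinases (CIPKs) to membranes, while calcium-dependent protein kinases (CPKs, also written CDPKs) carry a calmodulin-like domain next to their own kinase domain. In rice, members of these families are known for potassium and sodium transport, for drought, cold and salt responses, and for immunity against blast. All of them are regulated by calcium and by phosphorylation, so a transcript level says nothing of kinase activity.

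Members were taken by name. A probe set counted where it maps to 1 gene whose symbol or synonym, without a leading Os, is CIPK, CPK, CDPK or CBL followed by a number. This gave 51 of the 17905 genes that the array's annotation names with a probe set of their own, read by 65 of its 57381 probe sets: 34 probe sets of 24 CIPK genes, 23 of 20 CPK genes and 8 of 7 CBL genes. The rice annotation used here names 63 such genes (30 CIPK, 24 CPK and 9 CBL), and the remainder had no probe set mapped to 1 gene. Of the 65 probe sets, 64 passed the filter on low signal, and the one that did not is 1 of the pair for CIPK32. Among the names, CDPK1 is a synonym of CPK1, CPK4, CPK7 and CPK23, and CDPK7 of CPK7 and CPK13. The names CDPK2, CDPK3, CDPK5 and CDPK12 are also shared by several members. CPK2 is a synonym of CPK19 besides naming a gene of its own, as CBL2 is of CBL5. Each gene is called here by 1 CPK, CIPK or CBL number, which other sources may use for another gene.

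The samples were tissue of RP2068-18-3-5 (RP), an indica rice that resists the Asian rice gall midge by a hypersensitive response. In the infested group (RP-I), 25 female and 10 male midges of biotype GMB1 were released on plants 15 days old, and the trays went to a humid chamber after 48 h. From these plants 1 cm of tissue was cut at the place where the maggots fed. The un-infested group (RP-UI) is the same variety at the same age, cut at the same site without midges or maggots. Each array joins material of 24, 48 and 72 h after infestation (hai), and each group has 3 biological replicates, so a transcript has 6 values and no time course. The 2 groups share their variety and differ in infestation, and no susceptible variety is among the arrays.

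Values are log2 signals of the Affymetrix Rice Genome Array, made by the authors with RMA. On this scale a difference of 1 is a 2-fold change. Signals of different probe sets depend on their probes, so no gene's level is set against another gene's. Array medians lay between 5.44 and 5.49, and 14 of the 65 members had a mean below the median of the array. The median of the control probe sets was 7.78 on RP-I 3 and 7.13 on RP-UI 3. On the arrays numbered 1 and 2 it lay between 6.92 and 7.21. The array RP-I 3 stood apart from the other infested arrays: its signals correlated at 0.961 and 0.954 with RP-I 1 and RP-I 2, which correlated at 0.990 with each other, and at 0.968 with RP-UI 3. Same-numbered arrays of both groups deviated together, so p-values of the members the results turn on come from a fit without and a fit with a block for the replicate number. Arrays numbered 1 and 2 also deviated together across numbers, so matching within these numbers is uncertain. The array number limits the precision here, since 3 arrays a group leave few degrees of freedom.

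No CIPK, CPK or CBL probe set passed an adjusted p of 0.05 when the 3 infested arrays were compared with the 3 un-infested ones by limma's moderated test (0 of 64, against a background of 0.563% of the 51532 probe sets tested). At an unadjusted p of 0.05 or under there were 7 of 64 (10.9%), against a background of 14.2%. Of these 7, probe sets of CIPK10, CIPK23, CIPK24, CPK8, CBL5 and CBL10 were higher in RP-I (6 of 64, 9.38%, background 6.58%) and 1 of CIPK31 was lower (1.56%, background 7.65%). By the methods' own thresholds, an unadjusted p of 0.05 or under and a 2-fold change, CIPK23 and CIPK24 were higher (3.12%) and no member lower. The background was 5.56% in either direction, with 1373 probe sets higher and 1492 lower in RP-I. With the replicate block, 11 of 64 passed (17.2%, background 8.50%). Of these, 8 rose in RP-I (12.5%, background 4.06%): CIPK1, CIPK14, CIPK16, CIPK19, CIPK24, CPK8, CBL3 and CBL10. The other 3 fell (4.69%, background 4.44%): CIPK25, CPK3 and 1 of the probe sets of CPK18.

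All 11 had the same sign in each of the 3 pairs of same-numbered arrays. The block compares within these pairs, so it favours such members and the agreement is no separate support. The RP-I and RP-UI values stayed apart only for CIPK24 and CBL10. Of all 64 members they stayed apart with RP-I above in 9 (14.1%, background 9.12%) and below in 3 (4.69%, background 9.73%). Both arrays numbered 3 bear on the 11 calls. Without them, and with the block, 3 members passed, all of them CIPKs higher in RP-I (4.69%). The background was 4.18% in either direction, with 1248 probe sets higher and 908 lower in RP-I. Of the 11, 2 were among these 3 members. The 9 that no longer passed kept their direction, with adjusted p-values between 0.057 and 0.102. That comparison has only 2 pairs of arrays, and it was chosen after seeing the data.

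**Figure D1:**
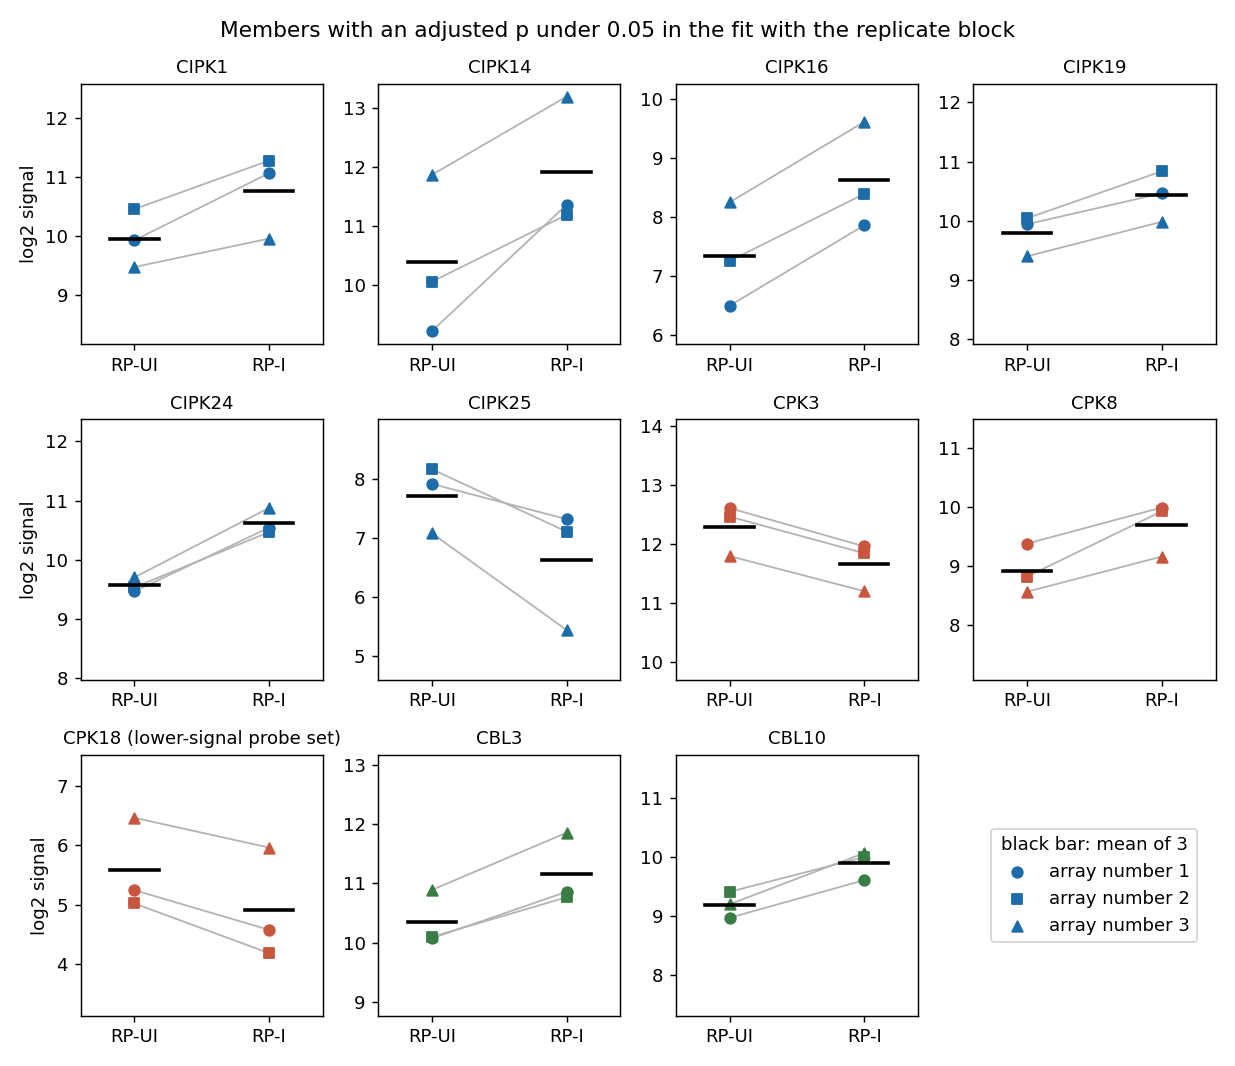
Log2 signal (vertical axis) of the 11 members that passed with the replicate block, in the RP-UI and RP-I arrays (horizontal axis). Symbols are the array numbers, grey lines join arrays of the same number, black bars are means of 3, and every panel spans the same height. All lines of a panel run the same way, which the choice of members by the block favours. The triangles of arrays numbered 3 often lie far from the other arrays, as for CIPK14 (11.86 and 13.19).

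CIPK24 had the smallest p of all members without the block, and CIPK16 with it. It is the rice counterpart of SOS2, the kinase that with the sensor CBL4 (SOS3) switches on the sodium exporter SOS1 under salt. Its probe set Os.15639.1.S1_at read 9.46, 9.53 and 9.70 in RP-UI 1 to 3 and 10.54, 10.47 and 10.88 in RP-I 1 to 3. Every infested array lay above every un-infested one, and the array numbered 3 was the highest in both groups. The means were 9.57 ± 0.12 and 10.63 ± 0.22 (SD, n = 3), 2.09-fold apart, with a log2 fold change of 1.06 (SE 0.16). The adjusted p was 0.058 without the block and 0.018 with it, 0.046 after a further quantile normalization, and 0.048 with the block but without both arrays numbered 3. CBL4, its partner in that pathway, went the other way without passing in either fit: 6.88, 5.72 and 5.83 in RP-UI against 5.53, 5.79 and 5.31 in RP-I (log2 fold change -0.60, SE 0.33, adjusted p = 0.530 without and 0.300 with the block). The CBL4 values overlapped, and RP-UI 1 alone was above 6.

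The largest differences of the CIPK family were those of CIPK14, CIPK16 and 1 probe set of CIPK23. CIPK14 is known, with its near-duplicate CIPK15, for defence responses of cultured rice cells to a fungal elicitor. It read 9.22, 10.06 and 11.86 in RP-UI against 11.36, 11.19 and 13.19 in RP-I. Each infested array was above the un-infested array of its number, by 2.13, 1.13 and 1.32, yet RP-UI 3 exceeded RP-I 1 and RP-I 2. Its log2 fold change was 1.53, with an SE of 0.81 and an adjusted p of 0.499 without the block, and an SE of 0.22 and an adjusted p of 0.026 with it. The value was 0.89 when RP-I 3 alone was left out and 0.95 when RP-UI 1 was. It was 1.63 without both arrays numbered 3. CIPK16 behaved alike: 6.50, 7.26 and 8.25 in RP-UI against 7.86, 8.39 and 9.61 in RP-I. Its pairs differed by 1.36, 1.13 and 1.36, and its group values overlapped because RP-UI 3 was above RP-I 1. The log2 fold change was 1.28 with a wide SE of 0.58 without the block and 0.13 with it (adjusted p = 0.407 and 0.016). It was 0.79 without RP-I 3 and 1.25 without both arrays numbered 3. The probe sets of CIPK14 and CIPK16 carry the suffixes that mark probes shared by transcripts of 1 gene (a) and probes that may cross-hybridise (x).

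CIPK23, which with CBL1 activates the potassium channel AKT1 in rice roots, was read by a pair of probe sets that disagreed. Os.27738.1.S1_at gave 8.58, 7.86 and 8.28 in RP-UI against 10.08, 10.12 and 8.82 in RP-I. Its groups were apart, with RP-I 3 the lowest infested array. The log2 fold change was 1.43 (SE 0.39, adjusted p = 0.161, 0.066 with the block) and became 1.86 (adjusted p = 0.049) without RP-I 3. Os.9372.1.S1_at gave 10.61, 10.57 and 10.65 in RP-UI against 10.48, 10.20 and 11.13 in RP-I, which overlap, with a log2 fold change of -0.0039 (SE 0.25). In RP-I 3 the first was low and the second high. Averaged over both, the gene value was 0.71, so what CIPK23 did depends on the probe set.

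CIPK1 and CIPK19 completed the CIPKs that rose with the block. CIPK1, whose Arabidopsis namesake acts in abscisic acid and osmotic responses, read 9.93, 10.46 and 9.48 in RP-UI against 11.07, 11.28 and 9.96 in RP-I. Its log2 fold change was 0.81, with adjusted p-values of 0.472 and 0.049. CIPK19 read 9.94, 10.04 and 9.40 in RP-UI against 10.46, 10.84 and 9.98 in RP-I, a log2 fold change of 0.63 with adjusted p-values of 0.383 and 0.048. In both genes the arrays numbered 3 were the lowest of their group, the opposite of CIPK14 and CIPK16, and RP-I 3 fell within the un-infested values. Both probe sets thus passed with the block by a narrow margin.

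CIPK10 gave a like picture in 4 probe sets, none of which passed. Their log2 fold changes lay between 0.67 and 0.99, and in each the infested array was above the un-infested one in all 3 pairs. The probe set Os.8095.1.S4_at read 7.48, 7.17 and 7.73 in RP-UI against 8.13, 7.83 and 9.28 in RP-I, which do not overlap, and had a log2 fold change of 0.95 (SE 0.39, adjusted p = 0.343, 0.065 with the block). The other 3 overlapped, with RP-UI 3 above RP-I 1 or RP-I 2. Without RP-I 3 the 4 values became 0.16, -0.26, 0.22 and 0.52, so 1 of them turned sign. RP-UI 3 was also the highest un-infested array in all 4. Without both arrays numbered 3, a choice made after seeing the data, they were 0.49, 0.23, 0.72 and 0.66. The 4 probe sets read the same gene and are not independent.

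Of the CIPKs, CIPK25 alone fell with the block. It read 7.91, 8.16 and 7.07 in RP-UI against 7.31, 7.10 and 5.44 in RP-I, so that RP-I 3 lay more than 1 log2 unit below all others and RP-UI 3 below RP-I 1 and RP-I 2. The log2 fold change was -1.09 (SE 0.55, adjusted p = 0.466, 0.048 with the block). It was -0.50 without RP-I 3 and -0.82 without both arrays numbered 3. Next in size were CIPK12 and CIPK31. CIPK12, known for drought tolerance when overexpressed in rice, had log2 fold changes of -0.54 and -0.27 in its probe sets, with 6.79, 6.75 and 6.32 in RP-UI against 6.52, 6.07 and 5.66 in RP-I for the first and 5.13, 5.48 and 5.22 against 5.31, 4.63 and 5.07 for the second. Both overlapped between groups, and neither passed (adjusted p = 0.442 and 0.716 without, 0.0952 and 0.577 with the block). CIPK31 (also named CIPK3 and OsCK1) had values of 10.60, 10.81 and 10.71 in RP-UI against 10.23, 9.96 and 10.36 in RP-I for its a-suffixed probe set. These groups were apart, with the log2 fold change at -0.52 (SE 0.16, adjusted p = 0.190, 0.119 with the block). Its other probe set read 7.75, 7.97 and 7.27 against 7.38, 7.51 and 6.77, a value of -0.44, with overlap. A pair of probe sets that pointed the same way thus stood behind CIPK31, although neither passed.

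The remaining CIPKs named by the rule were those at either end of the signal range and their other probe sets. CIPK6 read 11.20, 11.36 and 11.99 in RP-UI against 10.82, 11.17 and 11.13 in RP-I, with every infested array below the un-infested ones and a log2 fold change of -0.48 (SE 0.24, adjusted p = 0.473, 0.181 with the block). CIPK2 had values of 0.31, 0.46 and -0.12 in its probe sets. The x-suffixed one read 11.43, 11.30 and 11.30 against 11.59, 11.57 and 11.79, the second 9.62, 9.36 and 9.53 against 9.78, 10.33 and 9.79, and the dim one 5.76, 5.49 and 4.83 against 5.37, 5.61 and 4.74. The first pair of these did not overlap between groups, but the sign differed in the dim probe set. CIPK32 read 10.01, 10.19 and 10.15 in RP-UI against 10.44, 10.09 and 10.85 in RP-I (log2 fold change 0.35, adjusted p = 0.588, 0.366 with the block), and its untested probe set lay between 3.03 and 3.52 on all arrays. The CIPKs not named so far (CIPK5, CIPK7, CIPK8, CIPK11, CIPK17, CIPK18, CIPK20, CIPK21, CIPK26, CIPK29 and CIPK30) had log2 fold changes between -0.31 and 0.22. The lowest of these, that of CIPK21, was 0.30 without RP-I 3.

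Over the 33 CIPK probe sets tested, 16 had a higher and 17 a lower mean in RP-I, and the median log2 fold change was -0.0013, against 0.0082 over all probe sets. Their median size without regard to sign was 0.35, against 0.18 over all probe sets. The groups were apart with RP-I above in 7 CIPK probe sets (21.2%, background 9.12%) and with RP-I below in 2 (6.06%, background 9.73%). All 3 pairs pointed up in 14 (42.4%, background 22.3%) and down in 8 (24.2%, background 22.0%). Higher and lower CIPK means were thus near equal in number, and no set test was run.

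**Figure D2:**
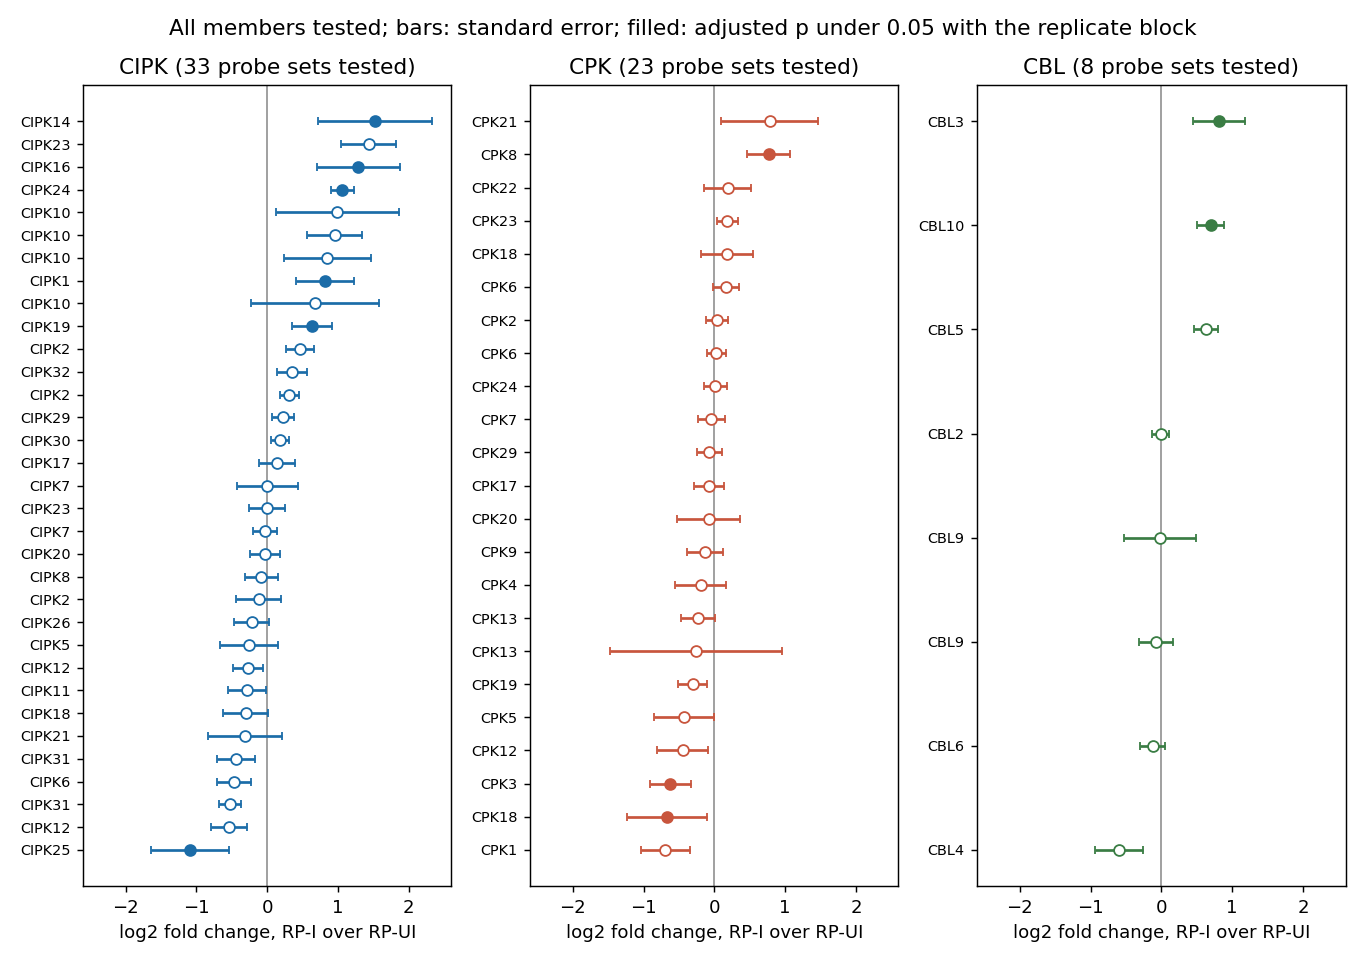
Log2 fold change of RP-I over RP-UI (horizontal axis) with its standard error (bars) for each of the 64 probe sets tested, by family and ordered by size; a gene with several probe sets appears on several lines. Filled points passed an adjusted p of 0.05 with the replicate block. CIPK values run from -1.09 to 1.53, CPK values from -0.69 to 0.78 and CBL values from -0.60 to 0.81.

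The CPKs had smaller values. Their median log2 fold change was -0.076, their median size 0.19, and their range -0.69 to 0.78 over 23 probe sets, of which 9 had a higher and 14 a lower mean in RP-I. With the block 1 rose (4.35%, background 4.06%) and 2 fell (8.70%, background 4.44%). The groups were apart for CPK1 alone (1 of 23, 4.35%, background 9.73%). All 3 pairs pointed up in 4 probe sets (17.4%) and down in 6 (26.1%), both near the background shares given for the CIPKs.

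CPK8 was the CPK that rose with the block. It read 9.38, 8.82 and 8.56 in RP-UI against 9.99, 9.92 and 9.16 in RP-I, with RP-I 3 below RP-UI 1. Its log2 fold change was 0.77 (SE 0.31, adjusted p = 0.329, 0.049 with the block). CPK21, known for salt and abscisic acid responses in rice, had a difference of like size, 0.78, but a wide error (SE 0.69, adjusted p = 0.759, 0.618 with the block). It read 7.59, 5.43 and 7.75 in RP-UI against 7.75, 8.39 and 6.96 in RP-I, so the value rests on the low RP-UI 2 and the pair numbered 3 had the opposite sign. The third largest increase, that of CPK22, was 0.19, with 4.80, 5.24 and 4.22 against 5.16, 5.20 and 4.44 (adjusted p = 0.916, 0.525 with the block).

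CPK3 and CPK18 fell with the block. CPK3 read 12.60, 12.46 and 11.79 in RP-UI against 11.96, 11.84 and 11.20 in RP-I. Its log2 fold change was -0.62 (SE 0.30, adjusted p = 0.436, 0.042 with the block). That value became -0.39 without RP-I 3 and -0.63 without both arrays numbered 3. Its 3 pairs dropped by nearly the same amount, and RP-UI 3 was below RP-I 1 and RP-I 2. CPK18 phosphorylates the MAP kinase MPK5 and is known in rice as a negative regulator of blast resistance. Its probe set Os.37974.1.S1_at read 5.24, 5.02 and 6.47 in RP-UI against 4.57, 4.18 and 5.96 in RP-I, with a log2 fold change of -0.67 (SE 0.57, adjusted p = 0.747, 0.046 with the block). That value moved to -1.20 when RP-I 3 was left out, -0.31 when RP-I 2 was and -0.23 when RP-UI 3 was. The other, Os.2714.1.S1_s_at, read 9.32, 9.09 and 10.09 against 9.47, 9.26 and 10.31, with a log2 fold change of 0.18 (SE 0.37, adjusted p = 0.933, 0.461 with the block) and the opposite sign in each pair. CPK18 has therefore no single direction on this array.

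CPK1 had the largest decrease of the family, -0.69 (SE 0.35, adjusted p = 0.467, 0.164 with the block). It read 12.33, 11.98 and 11.94 in RP-UI against 11.82, 11.74 and 10.61 in RP-I. The groups did not overlap, but RP-I 3 was far below all others, and the difference was -0.30 without it. CPK13 (a gene known under the name OsCDPK7 for cold, salt and drought tolerance) showed how far array number 3 could lie from the others. Its probe set Os.282.2.S1_a_at read 5.85, 5.98 and 9.33 in RP-UI against 5.60, 5.97 and 8.82 in RP-I, so a gap of over 3 log2 units appeared in both groups. Os.282.1.S1_a_at, of the same gene, read 13.46, 13.42 and 13.11 against 13.19, 13.47 and 12.63, with the arrays numbered 3 lowest. The log2 fold changes were -0.26 and -0.23, and neither passed in either fit (adjusted p = 0.978 and 0.815 without, 0.398 and 0.468 with the block). CPK6 was dim in both probe sets, with all values between 3.34 and 3.86 and log2 fold changes of 0.029 and 0.17.

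Several CPKs with known stress roles did not pass in either fit. The log2 fold change was -0.19 for CPK4 (salt, drought and blast), -0.45 for CPK12 (salt tolerance and blast susceptibility), -0.076 for CPK17 and 0.015 for CPK24 (both cold), and 0.18 for CPK23, the seed kinase SPK that phosphorylates sucrose synthase. Their adjusted p-values lay between 0.722 and 0.993 without the block and between 0.474 and 0.969 with it. CPK12 had a value of -0.80 without RP-I 3 and -0.86 without both arrays numbered 3, and CPK4 turned to 0.21 without RP-I 3. In CPK4 and CPK20 the arrays RP-I 1 and RP-I 2 were at or above the un-infested mean while RP-I 3 was low (9.98 and 10.37). A p that misses the threshold does not show that these transcripts were unaltered.

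**Figure D3:**
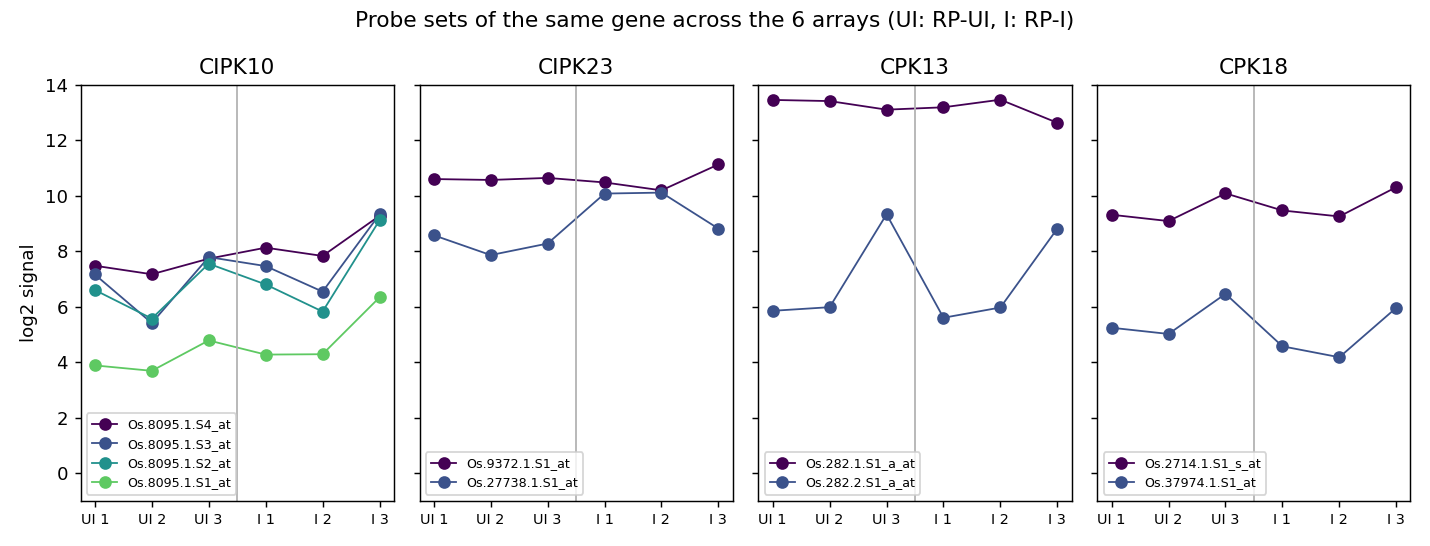
Log2 signal (vertical axis) of every probe set of CIPK10, CIPK23, CPK13 and CPK18 on the 6 arrays (horizontal axis, UI for RP-UI and I for RP-I); lines join the values of 1 probe set. The 4 lines of CIPK10 run together, while the lines of CIPK23 cross directions in the infested arrays and 1 line of CPK13 peaks at 9.33 and 8.82 on both arrays numbered 3.

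Among the CBL sensors, 3 of 8 probe sets had a higher mean in RP-I, and CBL4 held the one lower mean of like size. CBL10, which in Arabidopsis works with CIPK24 at the vacuole, read 8.97, 9.41 and 9.20 in RP-UI against 9.61, 10.00 and 10.07 in RP-I. All infested arrays were above all un-infested ones. The log2 fold change was 0.70 (SE 0.19, adjusted p = 0.159), and it passed with the block at 0.040. CBL3, a vacuolar membrane sensor in Arabidopsis, read 10.07, 10.10 and 10.89 in RP-UI against 10.86, 10.77 and 11.86 in RP-I. Its pairs all rose while RP-UI 3 was above RP-I 1 and RP-I 2, and the log2 fold change was 0.81 (SE 0.37, adjusted p = 0.407, 0.030 with the block). It was 0.46 without RP-I 3 and 0.73 without both arrays numbered 3. CBL5 read 4.44, 4.19 and 4.62 in RP-UI against 5.21, 5.04 and 4.87 in RP-I, apart between groups though below the array median in all 6 arrays. Its log2 fold change was 0.63 (SE 0.17, adjusted p = 0.157, 0.090 with the block).

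CBL2, CBL6 and CBL9 differed little. CBL2 had a log2 fold change of -0.0090 and values between 9.82 and 9.95. CBL6 read 11.02, 11.07 and 10.69 in RP-UI against 11.03, 10.62 and 10.75 in RP-I (log2 fold change -0.12, adjusted p = 0.892, 0.742 with the block). CBL9 was read by x-suffixed probe sets with log2 fold changes of -0.075 and -0.025. These read 6.75, 7.41 and 6.81 against 7.17, 6.64 and 6.93, and 5.71, 6.32 and 6.40 against 5.89, 5.24 and 7.23, with overlap in both. CBL4, given above with CIPK24, was -0.23 without RP-UI 1. The family's median was -0.017, its median size 0.36, and 2 of the 8 rose with the block (25.0%, background 4.06%).

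Array number 3 lay away from numbers 1 and 2 in many members. This distance had the same sign in both groups for 50 of 64 members. The share over all probe sets was not counted, so this number cannot be called particular to the members. Deviations of RP-UI 3 and RP-I 3 correlated at 0.624 over all probe sets tested. In 34 of 64 members (53.1%, background 46.6%) the distance was larger than the log2 fold change in both groups. In 6 members it was at least 1 log2 unit the same way in both groups (9.38%, background 4.32%): 2 probe sets of CIPK10, CIPK14, CIPK16, Os.282.2.S1_a_at of CPK13 and Os.37974.1.S1_at of CPK18. No CBL was among them. The median size of this distance over the CIPKs was 0.46 in RP-UI and 0.67 in RP-I, against 0.28 and 0.30 over all probe sets. What set the arrays numbered 3 apart is not given in the sources used here, and its part in the results was not tested.

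**Figure D4:**
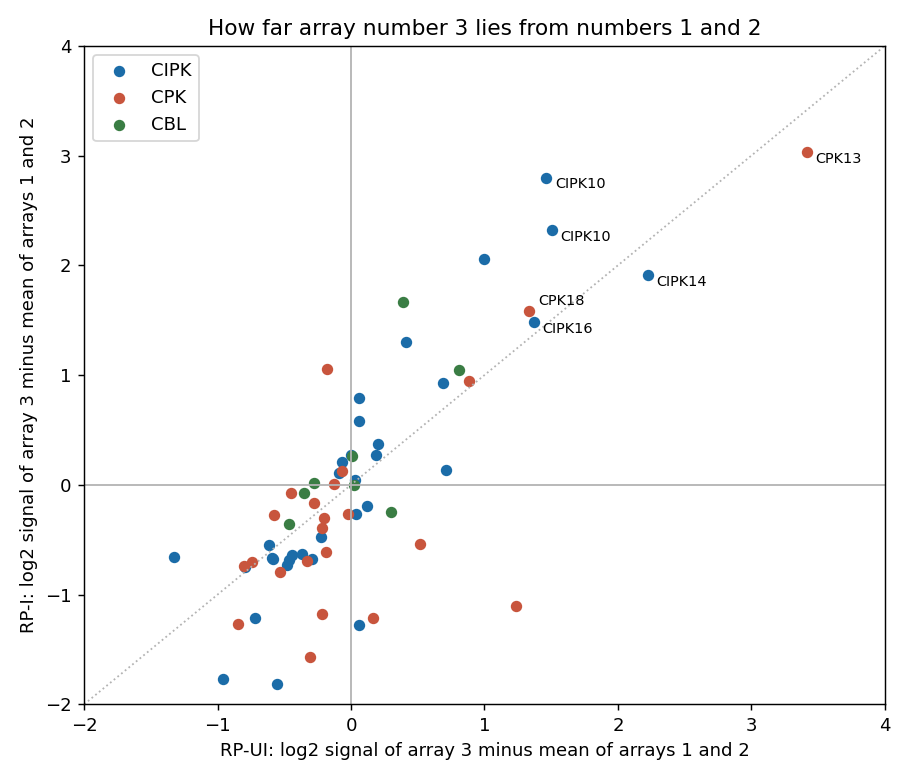
Distance of array number 3 from the mean of arrays 1 and 2, in log2 signal, in RP-UI (horizontal axis) and RP-I (vertical axis), 1 point for each of the 64 members tested, coloured by family; the dotted line marks equal distances. The 6 named points lie at 1 or more in both groups, with a CPK13 probe set farthest out at 3.41 and 3.03.

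Transcripts used as tissue markers differed between the groups. A joint list for dividing or meristem tissue held 14 probe sets, of which 7 had a higher and 7 a lower mean in RP-I. This list was split here into its cell cycle and homeobox parts, which went opposite ways. Over 7 probe sets of cell cycle genes the mean log2 signal per array was 9.87 to 9.97 in RP-UI and 7.39 to 9.04 in RP-I. Over 11 probe sets of green leaf genes it was 8.63 to 9.00 in RP-UI and 7.88 to 8.60 in RP-I, although 4 of the 10 tested, all of them RBCS probe sets (the small subunit of Rubisco), had a higher mean in RP-I. Over 7 probe sets of meristem homeobox genes it was 5.94 to 6.67 in RP-UI and 7.28 to 7.39 in RP-I. None of these ranges overlapped, and their part in the kinase and sensor values was not tested. In such bulk tissue, fewer cells of a type and less RNA per cell cannot be told apart.

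Other genes of calcium signalling, listed by symbol, gave a context for the kinases. Calmodulin-like proteins (CMLs) are EF-hand sensors without a kinase domain. Of 27 CML probe sets tested, 1 rose without the block (3.70%, background 0.235%), and 5 rose and 1 fell with it (22.2%, background 8.50%). The median log2 fold change was 0.37, against -0.029 over the CIPK, CPK and CBL probe sets, but by pairs it was 0.24, 0.49 and -0.25, so the pair numbered 3 went the other way. CML4 rose in its s-suffixed probe set (8.75, 8.45 and 9.10 in RP-UI, 10.19, 10.61 and 10.38 in RP-I, log2 fold change 1.62, SE 0.21, adjusted p = 0.048, 0.020 with the block), and its other probe sets had values of 1.54 and 1.26. CML8 read 7.82, 6.54 and 8.18 against 9.43, 9.48 and 9.88, with a log2 fold change of 2.08 (SE 0.42, adjusted p = 0.088, 0.024 with the block). The infested arrays of both genes were all above the un-infested ones. Without the block, CML4 no longer passed when any single array was left out. None of the 3 calmodulin probe sets passed, with values between -0.24 and -0.023.

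Upstream of these sensors, the glutamate receptor-like channel GLR3.1 fell with the block in 1 of its probe sets. That probe set read 9.15, 9.15 and 9.07 in RP-UI against 8.27, 8.16 and 7.78 in RP-I (log2 fold change -1.05, SE 0.17, adjusted p = 0.060, 0.022 with the block). The other had a value of -0.70 (adjusted p = 0.219 and 0.0996). TPC1, a channel of the vacuolar membrane and the one other gene of this list, had higher means in RP-I in both probe sets (0.39 and 0.29, higher in all 3 pairs, adjusted p = 0.798 and 0.597 without, 0.138 and 0.304 with the block). Of 16 probe sets of calcium pumps and exchangers, 1 rose with the block (6.25%, near the background of 4.06%). It belongs to ACA8, a calcium ATPase (8.90, 8.62 and 8.95 against 9.73, 9.62 and 9.46, log2 fold change 0.78, adjusted p = 0.084 and 0.042). The other probe set of ACA8 had a value of 0.18. RBOHB, the single NADPH oxidase found by symbol, had a value of -0.17 (adjusted p = 0.847, 0.577 with the block).

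The calcium and calmodulin-dependent kinase CCaMK, known for root symbiosis, fell with the block in 1 probe set. It read 9.79, 9.75 and 8.55 in RP-UI against 8.84, 8.46 and 7.74 in RP-I (log2 fold change -1.01, SE 0.43, adjusted p = 0.358, 0.025 with the block), and its other probe set had a value of -0.072. CRK6 rose in both fits (5.48, 5.32 and 5.60 against 6.95, 6.75 and 6.57, log2 fold change 1.29, adjusted p = 0.048 and 0.019). Without the block, its call was kept without RP-I 3. It was lost without each of the other 5 arrays, but there no probe set at all passed. The symbol CRK is used both for CDPK-related kinases and for cysteine-rich receptor-like kinases, and the annotation does not say which CRK6 is.

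Downstream, CBL and CIPK pairs act on potassium, ammonium and other ion transporters in plants. A list of such transporters was taken by name. Most of it is the HAK potassium transporter family, the others being AKT1 and AMT1 ammonium transporters. Whether a CIPK acts on each of them was not tested. Of 31 probe sets of this list tested, 24 had a higher mean in RP-I (77.4%, background 51.4%). The median log2 fold change was 0.28, and 5 rose with the block (16.1%, background 4.06%) while none fell. No probe set of the list passed without the block. There 5 had an unadjusted p of 0.05 or under by limma, all of them higher in RP-I (16.1%). The background was 14.2% in either direction and 6.58% for a higher mean in RP-I. The potassium transporter HAK10 read 7.21, 7.78 and 9.07 in RP-UI against 9.09, 9.21 and 10.71 in RP-I in one probe set, a log2 fold change of 1.65 (SE 0.61, adjusted p = 0.290, 0.015 with the block), with 1.49 in the other. HAK17, of the same family, read 8.62, 8.31 and 8.08 against 9.83, 9.40 and 9.20 (log2 fold change 1.14, SE 0.22, adjusted p = 0.082, 0.017 with the block), with 1.27 in the other. All pairs of both genes pointed up. AKT1, the channel that CIPK23 acts on, had a log2 fold change of -0.19, which turned to 0.25 without RP-I 3.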

How the data were processed

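Transcripts were measured on 6 Affymetrix Rice Genome Arrays, 3 of RP-UI and 3 of RP-I. The authors background-corrected, quantile-normalised and summarised them by RMA and deposited log2 signals. GeneSpring is the software of the methods, whereas Affymetrix Expression Console and RMA stand in the submitters' processing notes (no version is given in the sources used here). Whether RNA or tissue of the 3 time points was pooled is told differently in the paper and the deposited record. The methods' percentile filter had not been applied to the table.

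The deposited values were used unchanged. After removal of 123 control probe sets, the 51532 with a mean at or above the 10th percentile were tested. RP-I was compared with RP-UI by limma 3.58.1 in R 4.3.3 (lmFit, eBayes), with p-values adjusted over all probe sets kept (Benjamini-Hochberg) and a call at an adjusted p under 0.05. The script was tested on simulated data. Lists and figures were made with Python 3.11.15, pandas 2.3.3, numpy 2.4.6 and matplotlib 3.10.9. ± is the SD of 3 arrays and SE that of the fit without the block unless said otherwise.

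Same-numbered arrays of both groups had deviations (array minus group mean) that correlated at 0.521, 0.308 and 0.624, each over 0.1, so the replicate number was used as a block in the other fit. Deviations also correlated at 0.295 for RP-UI 1 with RP-I 2 and at 0.244 for RP-UI 2 with RP-I 1. The value of the pair numbered 2 is thus little above those of unlike numbers. Whether numbers mark shared trays or days is not stated for the arrays, and a common difference of both arrays numbered 3 would make all 3 correlations positive. Without the block, p-values set the difference against the spread between arrays of a group. With it, they set the difference against the spread of the differences between same-numbered arrays.

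Of all probe sets, 22436 have 1 gene in the annotation, 95 have several and 34850 have none here. Members and lists were chosen with earlier results of these data known. Values in every array are given for members that passed in either fit, and in each family for the 3 largest increases and decreases, the 2 highest and the 1 lowest mean signals, with all probe sets of such genes. Up to 2 genes were named of each other list. CIPK10, CIPK21, CBL2, the CPKs with known stress roles, CPK20, TPC1, RBOHB and AKT1 were added after their values were seen. Promoter and protein sequences were not used here. Alternatives were a replicate block, other filters, quantile normalization, median centring, a variance trend with robust moderation, leaving out arrays, and the methods' rule (unadjusted p of 0.05 or under and 2-fold).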

Additional observations from a re-analysis of the deposited data

How the results depend on the processing

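Without the block, no CPK or CBL probe set passed under any filter, scaling, moderation or omission tried. The replicate block gave 6 CIPK, 3 CPK and 2 CBL calls, against 4379 of all probe sets. CIPK calls were 1 after quantile normalization, 0 to 1 with 1 array left out (1, CIPK23, without RP-I 3), 3 without both arrays numbered 3 (CIPK23, CIPK24 and, with the block, CIPK16 or, without it, CIPK14), and 2 (CIPK23 and CIPK24) by the methods' rule. Over all probe sets the 290 calls became 133 after median centring, 87 with a variance trend and robust moderation, 0 to 280 with 1 array left out (280 without RP-I 3, 0 without any other), 2492 without both arrays numbered 3 and 2156 with the block besides, and 2865 by the methods' rule. Where both arrays numbered 3 were left out, the choice was made after seeing the data. The causes were not tested.

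No sign of a member called with the block turned with 1 array left out, but signs of 25 of the 64 members tested did. With single arrays left out, the log2 fold change ranged from -0.26 to 1.38 in Os.8095.1.S2_at of CIPK10, -0.63 to 0.30 in CIPK21, -0.39 to 0.13 in the dim CIPK2 probe set, -0.27 to 0.20 in Os.9372.1.S1_at of CIPK23, -0.48 to 0.21 in CPK4, -0.012 to 0.092 in CPK6, -0.41 to 0.0023 and -1.27 to 0.88 in CPK13, -0.27 to 0.023 in CPK17, -0.13 to 0.48 in Os.2714.1.S1_s_at of CPK18, -0.44 to 0.44 in CPK20, -0.080 to 0.43 in CPK22, -0.080 to 0.11 in CPK24, -0.045 to 0.019 in CBL2, and -0.21 to 0.14 and -0.58 to 0.41 in CBL9, and outside the families from -0.17 to 0.026 in 1 CCaMK probe set, -0.28 to 0.013 in RBOHB and -0.70 to 0.25 in AKT1. Without both arrays numbered 3, with or without the block, CIPK21 was at 0.11, CPK4 at 0.27, CPK6 at -0.034, CPK20 at 0.34, CPK24 at -0.031 and AKT1 at 0.32. Quantile normalization gave 0.0083 for that CIPK23 probe set and 0.016 for CBL2, and median centring -0.0066 for CPK24. With 3 arrays a group and signals near the floor for CPK6, CIPK30 or CIPK32, small changes were not detectable.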
